A study of Xenopus tropicalis with 17 samples.

Results

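Heterozygous sf3b4 embryos of Xenopus tropicalis, a frog, were compared as whole embryos between stage 25, the tailbud embryo, and stage 35, the tadpole. The members were the 4 libraries titled as heterozygous at these stages, 2 at stage 25 and 2 at stage 35, of 17 libraries in all. The series also holds wild type and null embryos and stage 15, and the 4 wild type libraries of stages 25 and 35 serve here only as a reference. All groups are whole embryos grown in NAM with no treatment, and the label "Sf3b4 heterozygous" applies to both stages. Each library was made from RNA of a pool of 5 embryos, so a value is a pool average and not that of an embryo. The allele, the sex and the parentage of the embryos are not given in the sources used here. Gene expression was measured as raw read counts per gene from polyA-selected RNA.

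The gene sf3b4 encodes a protein of SF3b, the part of the U2 snRNP that holds the branch point while the spliceosome assembles on an intron. In people, loss of 1 copy of SF3B4 is a known cause of Nager syndrome, a disorder of the face and limbs. Between the tailbud stage and the tadpole, a frog embryo adds somites, hatches, and starts blood flow. In the same interval its retina, nervous system, liver and pigment cells differentiate.

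Library totals were 17996021 and 16753666 counts at stage 25 and 11969552 and 11714437 counts at stage 35. Pools of 1 stage correlated across genes with r of 0.984 at stage 25 and 0.977 at stage 35 on log2 CPM, the counts of a gene scaled to the size of its library, against 0.844 to 0.86 between the stages. All 21 markers of the main tissues of a whole embryo had counts in all 4 pools. The stage 35 heterozygous pools stood further apart than the stage 25 heterozygous pools. At stage 35, 310 of 13621 genes were at least 2-fold higher in pool 2 and 75 were at least 2-fold higher in pool 1, against 168 and 87 genes at stage 25. The summed level of the lens list was 45.0 CPM in pool 1 and 332 CPM in pool 2 of stage 35, that of the liver list was 3635 and 9410 CPM, and that of the embryonic blood list was 2502 and 6229 CPM. The neuronal list went the other way, with 4444 CPM in pool 1 and 3232 CPM in pool 2. Wild type pools differed at least 2-fold in 566 genes at stage 25 and in 511 at stage 35. The wild type pools of stage 35 split in the reverse order: pool 1 held more than pool 2 for the lens (367 and 53.5 CPM), liver and embryonic blood lists, and less for the neuronal list, with 3189 and 4325 CPM. The part of this split in the results was not tested, and it is given beside only some of the lists it touches. Heterozygous pool 2 of stage 35 was also the higher for 16 of 22 gut and pancreas, 29 of 36 epidermis and 21 of 29 multiciliated cell genes. The same held for 26 of 32 cartilage and collagen and 70 of 78 cytoplasmic ribosomal protein genes. In wild type, pool 1 was the higher for 15 gut and pancreas, 20 epidermis, 18 multiciliated cell and 19 cartilage and collagen genes. The ribosomal protein genes did not reverse in wild type, where pool 2 was the higher for 65 and pool 1 for 13. Heterozygous pool 1 was the higher for 26 of 35 Hox genes, whereas wild type pool 1 was the higher for 18 and pool 2 for 17.

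**Figure D1:**
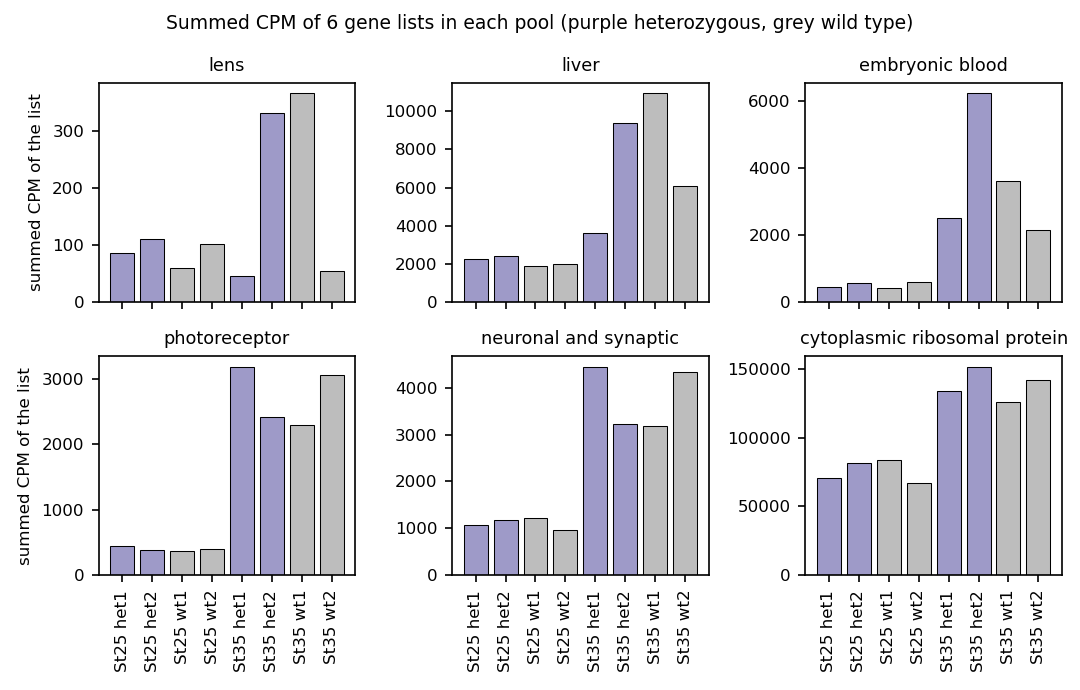
Summed CPM of 6 gene lists in each heterozygous pool (purple) and wild type pool (grey) of stages 25 and 35; bars are single pools and start at 0. Lens, liver and blood are higher in heterozygous pool 2 than in pool 1 at stage 35, neuronal and photoreceptor lists are higher in pool 1, and outside the lens list every stage 35 bar lies above every stage 25 bar.

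For each gene below, the CPM of pools 1 and 2 of stage 25 come first and those of pools 1 and 2 of stage 35 second (n = 2 pools a stage). CPM compares a gene between libraries and not genes with each other, since it is not divided by length. Fold changes are log2 differences of stage 35 from stage 25 with their standard errors (SE) from the quasi-likelihood test of edgeR, and a gene is said to rise or fall where its Benjamini-Hochberg adjusted p over 17742 genes was under 0.05. The p-values measure the spread between pools. In whole embryos, fewer cells of a type and less RNA per cell cannot be told apart. CPM is relative to the library, so a gene can also fall in CPM where other RNA of the embryo grows.

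The mutated gene itself fell from 110.5 and 125 CPM to 93.2 and 64.6 CPM (log2 -0.58 ± 0.20 SE, edgeR adjusted p = 0.0271). The stage 25 values lay above the stage 35 values without overlap, and both lay under the stage 15 heterozygous pools, with 177 and 224 CPM. The wild type pools held 144 and 147 CPM at stage 25 and 83.6 and 107 CPM at stage 35, a log2 change of -0.61. The call did not hold without pool 1 of stage 25 (-0.67, edgeR adjusted p = 0.0508), pool 2 of stage 25 (-0.49, 0.14) or pool 2 of stage 35 (-0.34, 0.255), nor with scaling by library totals alone (-0.45, 0.0699). All 10 subunits of the SF3a and SF3b complexes had negative fold changes, and 8 fell (80%), with a median log2 change of -0.59. Over all genes tested 22.0% fell, and the median was 0.04. Of 50 other spliceosome genes 34 fell (68%), also with a median of -0.59. The wild type course called all 10 subunits of SF3a and SF3b lower, with a median of -0.61. In the heterozygous course the largest fall was that of sf3a2. This SF3a subunit fell from 247 and 302 CPM to 111 and 126 CPM (log2 -1.21 ± 0.21 SE, edgeR adjusted p = 0.000267). Refits that left out any 1 of the 4 pools counted 5 or 6 falls.

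Of 17742 genes tested, 4563 rose (25.7%) and 3900 fell (22.0%), so that 47.7% were called in either direction. Rises were larger than falls: the median log2 change was 1.78 over the genes that rose and -1.07 over those that fell. The pools of the stages did not overlap for 4553 of the genes that rose and for all 3900 that fell, against 77.9% of all genes tested. Of the 9279 genes not called, 5375 did not overlap either. Calls were made from the same pools, so the lack of overlap is no separate support for them. The median over all genes tested was 0.04, and each list below is to be read against that value and against 25.7% and 22.0%.

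**Figure D2:**
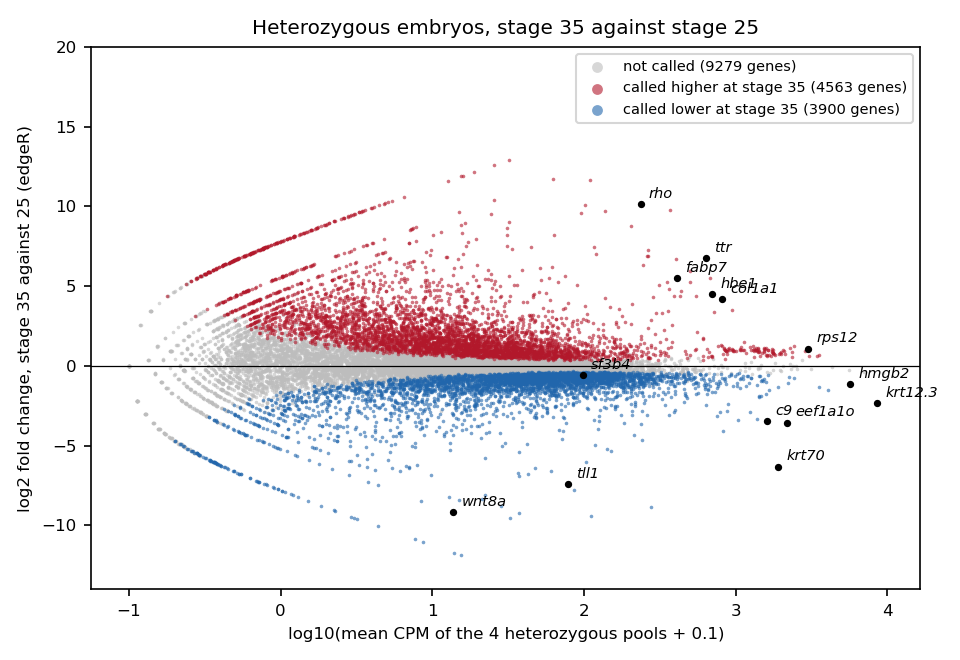
Log2 fold change of stage 35 against stage 25 for each of 17742 genes in heterozygous embryos (y) against the log10 of its mean CPM over the 4 pools plus 0.1 (x); colours mark genes called higher (4563), lower (3900) or neither (9279). Rises reach further than falls, and among the abundant genes on the right krt12.3, krt70, eef1a1o and c9 lie below 0.

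The 10 largest rises included genes of the photoreceptors, the gut and the liver. The visual pigment of rods, rho, rose from 0.224 and 0.613 CPM to 592 and 351 CPM (log2 10.14 ± 0.77 SE, edgeR adjusted p = 1.85e-07), and that of red cones, opn1lw, rose from 0.168 and 0.49 CPM to 335 and 215 CPM (log2 9.7 ± 0.60 SE, edgeR adjusted p = 4.24e-08). Both genes were near a handful of counts in the tailbud pools and among the well measured genes of the tadpole. Transducin gamma of cones, gngt2, had 1 count in each stage 25 pool and went from 0.056 and 0.0613 CPM to 217 and 221 CPM, a ratio of 3743 with a 95% counting interval of 1036 to 30918. The carrier of retinol in blood, rbp4, rose from 0.952 and 0.735 CPM to 351 and 1119 CPM (log2 9.75 ± 0.79 SE, edgeR adjusted p = 3.5e-07). The intestinal fatty acid carrier fabp2 rose from 0.224 and 0.123 CPM to 93.8 and 309 CPM (log2 10.1 ± 0.71 SE, edgeR adjusted p = 8.14e-08), and for both carriers pool 2 of stage 35 held about 3 times pool 1. The lipoprotein component apoc2 had 1 count at stage 25 and went from 0.056 and 0 CPM to 58.5 and 191 CPM, a ratio of 4199 with a 95% counting interval of 753 to 165902. The remaining genes of the 10 largest rises were rcvrn.1, rbp4l, rbp2 and lman1l.

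The largest falls were led by secreted proteases of the astacin and tolloid family. Of the 10 largest falls, 6 were of this family (tll2l, tll1, astl2d.3, astl2d.4, astl2g and astl2f), members of which loosen egg coats and process matrix proteins. The tolloid-like gene tll1 fell from 164 and 146 CPM to 0.612 and 1.22 CPM (log2 -7.4 ± 0.52 SE, edgeR adjusted p = 8.14e-08), and astl2d.3 fell from 208 and 236 CPM to 0.153 and 0.487 CPM (log2 -9.42 ± 0.70 SE, edgeR adjusted p = 1.41e-07). Both tadpole pools were under 2 CPM for all 6 genes. The paired genes angpt4 and angpt4.2 and the gene slc10a1, named for a bile acid carrier, were also among the 10; slc10a1 fell from 20.4 and 18.1 CPM to 0.23 and 0.0811 CPM (log2 -6.86 ± 0.52 SE, edgeR adjusted p = 1.64e-07). Reads of near-identical astl2 copies may have been split between them, so their separate values are uncertain.

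As differences in CPM, the largest losses were of epidermal keratins and of 2 abundant embryonic transcripts. The keratin krt12.3 fell from 14059.7 and 14406 CPM to 2261 and 3318 CPM (log2 -2.35 ± 0.22 SE, edgeR adjusted p = 1.45e-06), and krt70 fell from 4424 and 3143 CPM to 40.3 and 54.8 CPM (log2 -6.31 ± 0.34 SE, edgeR adjusted p = 9.87e-09). The tailbud pools of krt70 were each more than 50 times the tadpole pools. An oocyte-type elongation factor, eef1a1o, fell from 4333 and 3731 CPM to 337 and 349 CPM (log2 -3.56 ± 0.32 SE, edgeR adjusted p = 9.95e-07). The chromatin protein gene hmgb2 fell from 8032 and 7445 CPM to 3911 and 3202 CPM (log2 -1.12 ± 0.18 SE, edgeR adjusted p = 0.000169). The largest gains were of ribosomal protein genes and ferritin, with rps12 rising from 1818 and 2043 CPM to 4459 and 3680.4 CPM (log2 1.08 ± 0.22 SE, edgeR adjusted p = 0.000938) and fth1.1, the heavy chain that stores iron, rising from 2705 and 2706 CPM to 4235 and 4505 CPM (log2 0.69 ± 0.19 SE, edgeR adjusted p = 0.00674).

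**Figure D3:**
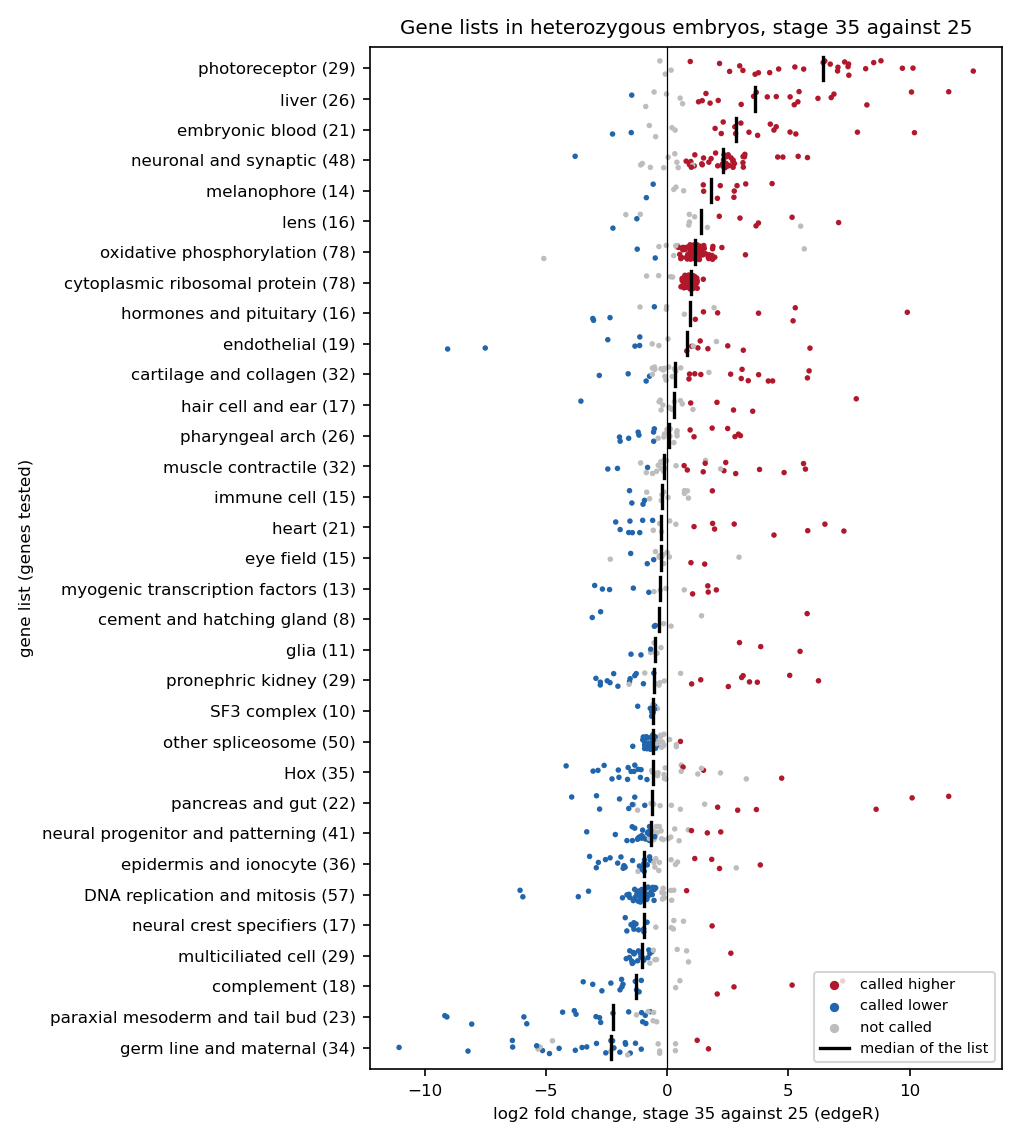
Log2 fold change of stage 35 against stage 25 for each tested member of 33 gene lists in heterozygous embryos (points; red higher, blue lower, grey not called) with the median of each list (bar); the number of tested members is in brackets. Photoreceptor, liver, blood and neuronal lists lie to the right, and maternal, tail bud, complement and multiciliated cell lists lie to the left.

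Photoreceptor genes rose almost as a whole. Of 29 tested members, 26 rose (89.7%) and none fell, with a median log2 change of 6.43, or 5.38 with genes at 0 counts in a stage set to their bound. Recoverin, the calcium sensor of phototransduction (rcvrn.1), had no count in either stage 25 pool and 54.6 and 47.6 CPM at stage 35, at least 584-fold higher. Cone arrestin, arr3, rose from 1.51 and 2.08 CPM to 236 and 238 CPM (log2 7.04 ± 0.47 SE, edgeR adjusted p = 6.37e-08), and the pools of a stage differed little for it. The transcription factor crx, which drives photoreceptor genes, was already present in the tailbud pools and rose from 11.5 and 16.2 CPM to 312 and 208 CPM (log2 4.23 ± 0.52 SE, edgeR adjusted p = 1.37e-05). The factor nrl rose less, from 4.37 and 4.23 CPM to 19.4 and 19.1 CPM (log2 2.16 ± 0.27 SE, edgeR adjusted p = 1.65e-05). The members that were not called were rp1, guca1b and gnb1. With any 1 of the 4 pools left out, 26 rises were again counted. At stage 35, 22 of 29 members were higher in pool 1 than in pool 2. Of the eye field factors, which mark the early optic primordium, 2 of 15 rose and 3 fell, and with 1 pool left out 0 or 1 rose and 1 or 2 fell. With all pools the eye field shares were 13.3% rising and 20% falling, against 25.7% and 22.0% of all genes tested. The retinal factor rax fell from 79.5 and 55.9 CPM to 26.9 and 20.9 CPM (log2 -1.5 ± 0.25 SE, edgeR adjusted p = 0.000226), while pax6 was not called at 90.6 and 99.3 CPM at stage 25 and 77.5 and 74.7 CPM at stage 35.

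Lens genes gave no stable count. Of 16 tested members, 6 rose and 2 fell, but refits that each left out 1 pool counted 0 rises without pool 1 of stage 25 or without pool 2 of stage 35, 2 without pool 2 of stage 25, and 9 without pool 1 of stage 35. A beta crystallin, cryba1, went from 17 and 27.9 CPM to 6.58 and 78.1 CPM (log2 0.91 ± 0.90 SE, edgeR adjusted p = 0.42), so the tailbud pools lay between the tadpole pools. The lens membrane gene lim2 had the same order, from 7.95 and 10.3 CPM to 4.82 and 53 CPM (log2 1.66 ± 0.87 SE, edgeR adjusted p = 0.127). In 14 of 16 members pool 2 of stage 35 exceeded pool 1. The lens factor pitx3 did not follow this split and fell from 25 and 24 CPM to 10.7 and 9.9 CPM (log2 -1.25 ± 0.31 SE, edgeR adjusted p = 0.00383).

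Pigment genes rose. Of 14 tested melanophore genes, 9 rose (64.3%) and 2 fell, with a median log2 change of 1.79, and 9 were called as rising without any 1 pool. Tyrosinase, the first enzyme of melanin synthesis (tyr), rose from 2.97 and 5.76 CPM to 90.9 and 83.9 CPM (log2 4.33 ± 0.43 SE, edgeR adjusted p = 2.01e-06). Its relatives tyrp1 and dct rose from 22.1 and 20.6 CPM to 175 and 141 CPM (log2 2.88 ± 0.33 SE, edgeR adjusted p = 8.23e-06) and from 27.6 and 24.3 CPM to 96.2 and 122 CPM (log2 2.07 ± 0.25 SE, edgeR adjusted p = 1.38e-05). The endothelin receptor of pigment cells, ednrb2, rose from 2.24 and 2.21 CPM to 24.6 and 17.6 CPM (log2 3.24 ± 0.42 SE, edgeR adjusted p = 3.25e-05). The genes that fell were kit and gpr143, the latter from 47 and 49 CPM to 29 and 24 CPM (log2 -0.86 ± 0.18 SE, edgeR adjusted p = 0.00149). The melanophore regulator mitf was not called, at 2.97 and 3.06 CPM at stage 25 and 4.29 and 3.0 CPM at stage 35. Melanin is also made in the pigment layer of the eye, so the list does not separate skin from eye.

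Nervous system genes moved in opposite directions by role. Of 48 neuronal and synaptic genes, 38 rose (79.2%) and 1 fell, with a median log2 change of 2.29; of 41 genes of neural progenitors and patterning, 21 fell (51.2%) and 3 rose, with a median of -0.65. Neuron-specific tubulin, tubb3, rose from 117 and 118 CPM to 569 and 371 CPM (log2 2.0 ± 0.33 SE, edgeR adjusted p = 0.000206). The enzyme of GABA synthesis gad2 rose from 0.448 and 0.98 CPM to 22.2 and 16.9 CPM (log2 4.77 ± 0.54 SE, edgeR adjusted p = 6.34e-06), and the GABA carrier of synaptic vesicles, slc32a1, rose from 9.3 and 8.7 CPM to 92.3 and 73.8 CPM (log2 3.2 ± 0.29 SE, edgeR adjusted p = 8.25e-07). The early neuronal RNA-binding gene elavl3 was not called, at 192 and 205 CPM at stage 25 and 203 and 158 CPM at stage 35. The neuronal list was higher in pool 1 than in pool 2 of stage 35 for 43 of 48 members, yet both tadpole sums, 4444 and 3232 CPM, lay above the tailbud sums of 1070 and 1170 CPM. A copy of the GABA enzyme gene, gad1.2, was the member that fell, from 5.15 and 3.74 CPM to 0.536 and 0.0811 CPM (log2 -3.79 ± 0.61 SE, edgeR adjusted p = 0.000148), while gad1.1 was among those that rose.

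Fewer falls of progenitor and patterning genes were called with any 1 pool left out. Among progenitor genes the hindbrain factor egr2 fell from 35.7 and 32.8 CPM to 2.98 and 3.89 CPM (log2 -3.31 ± 0.39 SE, edgeR adjusted p = 9.43e-06). The neural plate factor sox3 fell from 240.1 and 224 CPM to 88.3 and 59 CPM (log2 -1.66 ± 0.22 SE, edgeR adjusted p = 2.97e-05), more than sox2, from 313 and 261 CPM to 187 and 149 CPM (log2 -0.77 ± 0.19 SE, edgeR adjusted p = 0.00362). A factor of neuronal differentiation, neurod1, rose from 11.3 and 6.43 CPM to 40.03 and 42.3 CPM (log2 2.21 ± 0.38 SE, edgeR adjusted p = 0.00026). Of 11 glial genes 3 rose (27.3%) and 3 fell (27.3%), near the 25.7% and 22.0% of all genes tested. The lipid carrier of radial glia, fabp7, had one of the largest changes among abundant genes, from 14.3 and 21.6 CPM to 705 and 897 CPM (log2 5.48 ± 0.33 SE, edgeR adjusted p = 3.87e-08), and the glutamate carrier slc1a2 rose from 13.8 and 20.4 CPM to 155 and 116 CPM (log2 2.98 ± 0.37 SE, edgeR adjusted p = 1.44e-05). The myelin gene mbp was not called, at 22.5 and 21.1 CPM at stage 25 and 14.8 and 15.3 CPM at stage 35. Of 16 hormone and pituitary genes 7 rose (43.8%) and 4 fell (25%). The precursor of corticotropin and melanocyte-stimulating hormone, pomc, had no count at stage 25 and 7.96 and 7.54 CPM at stage 35, at least 88.4-fold higher. The neuropeptide gene npy rose from 0.392 and 0.245 CPM to 17.1 and 8.52 CPM (log2 5.28 ± 0.78 SE, edgeR adjusted p = 7.21e-05), and the vasopressin-type gene avp fell from 15 and 13.5 CPM to 1.91 and 1.54 CPM (log2 -3.03 ± 0.36 SE, edgeR adjusted p = 1.12e-05).

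Neural crest genes fell. Neural crest cells leave the border of the neural tube and form, among other tissues, the skeleton of the face. Of 17 tested specifiers, 11 fell (64.7%) and 1 rose, with a median log2 change of -0.97, and 11 were called as falling without any 1 pool. The specifier snai1 fell from 317 and 314 CPM to 96.8 and 93.9 CPM (log2 -1.73 ± 0.16 SE, edgeR adjusted p = 8.88e-07), with stage values that did not overlap and pools that differed little. Sox10, which acts in migrating crest, fell from 52.8 and 43.4 CPM to 18 and 16.3 CPM (log2 -1.49 ± 0.34 SE, edgeR adjusted p = 0.00227), and id3 fell from 1121 and 1044 CPM to 429 and 408 CPM (log2 -1.37 ± 0.15 SE, edgeR adjusted p = 4.69e-06). The exceptions included sox9, also a cartilage factor, which was not called at 41.6 and 34.7 CPM at stage 25 and 42.9 and 43.2 CPM at stage 35. The wild type course called 11 members as falling and 1 as rising. Some members are not confined to the crest: tfap2a is also in the epidermis list and pax3 in the myogenic list. In whole embryos the falls need not be those of crest cells alone.

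Of 26 genes that pattern the pharyngeal arches, 7 rose (26.9%) and 8 fell (30.8%), against 25.7% and 22.0% of all genes tested, with a median of 0.06. The jaw joint gene nkx3-2 rose from 2.3 and 2.08 CPM to 17.4 and 18.3 CPM (log2 3.02 ± 0.44 SE, edgeR adjusted p = 6.4e-05), and barx1 rose from 3.08 and 4.11 CPM to 27.2 and 28.1 CPM (log2 2.94 ± 0.32 SE, edgeR adjusted p = 4.22e-06). The gene gsc, again active in the arches after its organizer phase, rose from 1.51 and 1.72 CPM to 8.57 and 14 CPM (log2 2.8 ± 0.51 SE, edgeR adjusted p = 0.000387). In contrast dlx3, which the epidermis also uses, fell from 192 and 181 CPM to 43 and 52.7 CPM (log2 -1.96 ± 0.19 SE, edgeR adjusted p = 1.75e-06). The 8 falls became 5 without pool 1 of stage 25 and also under each scaling other than the one used here.

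Of 32 cartilage and collagen genes, 13 rose (40.6%) and 4 fell (12.5%). The 4 falls became 2 without pool 1 of either stage. The chains of type I collagen rose together, col1a1 from 69.8 and 100.4 CPM to 1299 and 1771 CPM (log2 4.17 ± 0.42 SE, edgeR adjusted p = 2.42e-06) and col1a2 from 21.4 and 32.3 CPM to 432 and 662 CPM (log2 4.35 ± 0.31 SE, edgeR adjusted p = 1.11e-07). Type III collagen, col3a1, rose from 43.7 and 63.2 CPM to 472 and 614 CPM (log2 3.35 ± 0.32 SE, edgeR adjusted p = 1.61e-06). The main cartilage and notochord collagen, col2a1, went the other way, from 942 and 901 CPM to 465 and 547 CPM (log2 -0.86 ± 0.25 SE, edgeR adjusted p = 0.0113); this call was lost without pool 1 of either stage. Cartilage markers such as acan and matn4 were not called.

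**Figure D4:**
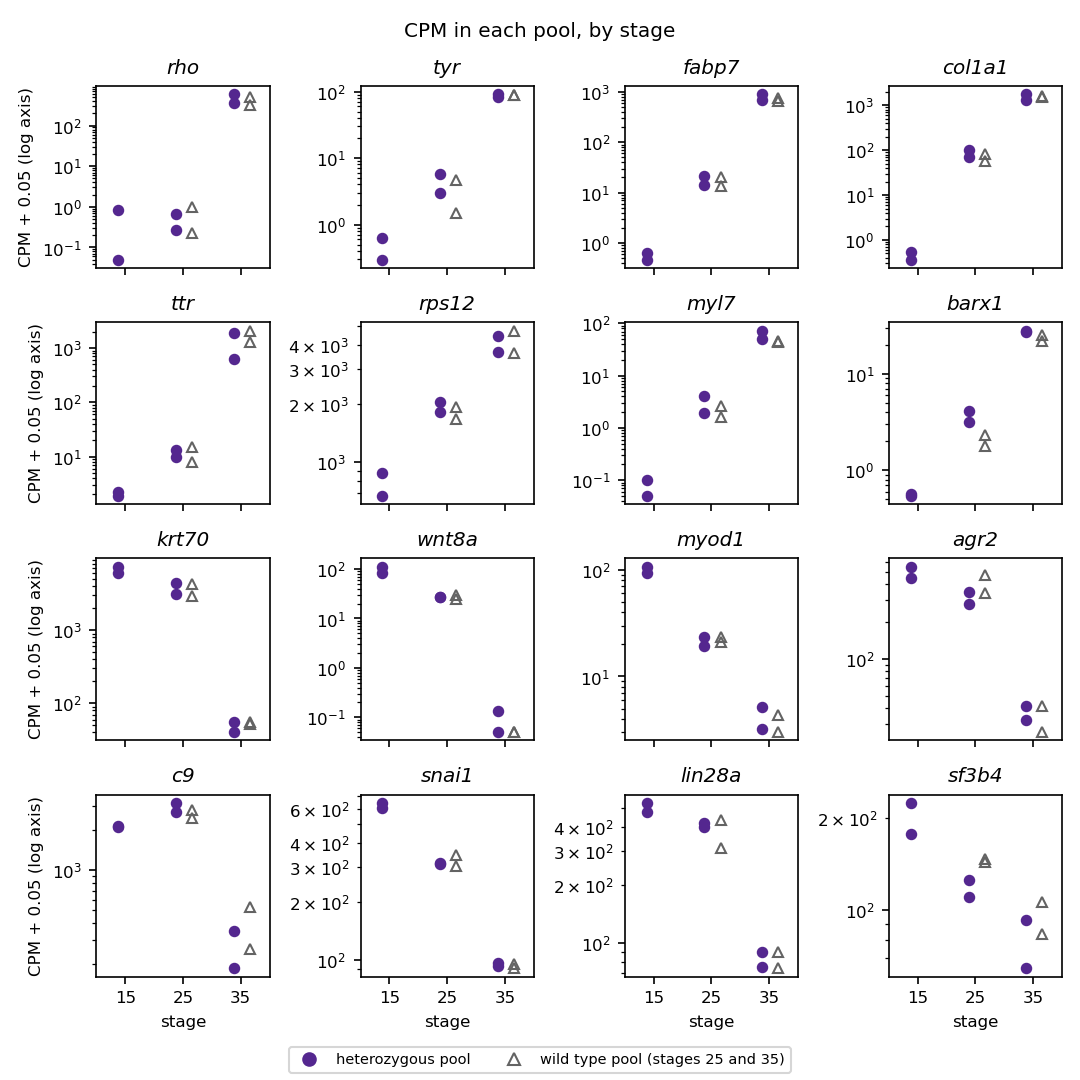
CPM plus 0.05 on a log axis for 16 genes at stages 15, 25 and 35 in each heterozygous pool (filled circles), with the wild type pools of stages 25 and 35 beside them (open triangles). In each of the 16 genes, all picked from called genes, the stage 25 and stage 35 heterozygous pools do not overlap, as in 77.9% of all genes tested. Of the 16, sf3b4 shows the smallest change.

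Paraxial mesoderm and tail bud genes fell without exception among those called. Of 23 tested members 18 fell (78.3%) and none rose, with a median log2 change of -2.23. The signal wnt8a had 483 and 448 counts at stage 25 and 0 and 1 counts at stage 35, a fall by a ratio of 692 with a 95% counting interval of 124 to 27352. The tail bud factor cdx4 fell from 46 and 41.7 CPM to 0.765 and 0.811 CPM (log2 -5.79 ± 0.40 SE, edgeR adjusted p = 6.82e-08), and the somite boundary gene ripply2.2 fell from 41.3 and 32.1 CPM to 2.98 and 2.43 CPM (log2 -3.75 ± 0.47 SE, edgeR adjusted p = 1.54e-05). The segmentation gene mespa was at 6.38 and 2.33 CPM and then at 0 counts, at least 37.6-fold lower. The notochord gene tbxt changed less, from 7.56 and 8.15 CPM to 4.82 and 3.57 CPM (log2 -0.9 ± 0.33 SE, edgeR adjusted p = 0.0342). Leaving out 1 pool left 15 or 16 falls.

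Of 32 contractile genes of muscle 11 rose, 3 fell and 18 were not called, with a median of -0.11. Cardiac actin, actc1, the abundant sarcomere actin of frog somites, was not called at 2334 and 3124 CPM at stage 25 and 2207 and 2546 CPM at stage 35. Muscle creatine kinase, ckm, rose from 169.9 and 230.3 CPM to 398 and 726 CPM (log2 1.49 ± 0.39 SE, edgeR adjusted p = 0.00584). The copies of desmin moved apart: des.1 fell from 712 and 838 CPM to 206 and 169 CPM (log2 -2.05 ± 0.21 SE, edgeR adjusted p = 3.18e-06) and des.2 rose from 0.728 and 1.29 CPM to 32.9 and 24.2 CPM (log2 4.82 ± 0.48 SE, edgeR adjusted p = 2.05e-06). Glycogen phosphorylase of muscle, pygm, fell from 1015 and 1155 CPM to 239 and 159.6 CPM (log2 -2.44 ± 0.23 SE, edgeR adjusted p = 1.36e-06). The 11 rises became 7 without pool 2 of stage 35. The 3 falls became 6 without a filter on low counts or with only the 4 pools in the fit, and 8 with the replicate number as a block among those 4 pools; the wild type course called 11 higher and 10 lower. Among 13 myogenic factors 4 rose and 5 fell. The determination factor myod1 fell from 23.5 and 19.2 CPM to 3.14 and 5.11 CPM (log2 -2.37 ± 0.29 SE, edgeR adjusted p = 1.46e-05) and myf6 fell from 42.8 and 37 CPM to 5.43 and 4.62 CPM (log2 -2.99 ± 0.34 SE, edgeR adjusted p = 7.59e-06), while the differentiation factor myog rose from 7.0 and 7.6 CPM to 30.5 and 29.2 CPM (log2 2.03 ± 0.48 SE, edgeR adjusted p = 0.00309).

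Of 21 heart genes 8 rose and 8 fell. The cardiac factor nkx2-5 fell from 35.1 and 32.4 CPM to 7.42 and 8.11 CPM (log2 -2.12 ± 0.23 SE, edgeR adjusted p = 5.03e-06), and gata4 fell from 31.8 and 31.8 CPM to 9.41 and 11.8 CPM (log2 -1.58 ± 0.28 SE, edgeR adjusted p = 0.000312). The atrial myosin light chain myl7 rose from 1.85 and 3.98 CPM to 50.2 and 73.1 CPM (log2 4.41 ± 0.38 SE, edgeR adjusted p = 6.68e-07), and the heavy chain myh6 rose from 21.5 and 27.3 CPM to 160.5 and 171 CPM (log2 2.77 ± 0.28 SE, edgeR adjusted p = 2.58e-06). The natriuretic peptide gene nppa had no count at stage 25 and 1.3 and 1.22 CPM at stage 35, at least 14.4-fold higher. The 8 falls became 5 without pool 2 of stage 25 or pool 1 of stage 35, while 8 rises were counted without any 1 pool. The factors nkx2-5 and gata4 are also expressed in endoderm, which these libraries include.

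Embryonic blood genes rose. Of 21 members 15 rose (71.4%) and 2 fell, with a median of 2.83. The globin genes hba3 and hbe1 rose from 102 and 152 CPM to 681 and 1962 CPM (log2 3.37 ± 0.54 SE, edgeR adjusted p = 0.000142) and from 48.5 and 69.5 CPM to 721 and 1943 CPM (log2 4.5 ± 0.54 SE, edgeR adjusted p = 1.16e-05). Pool 2 of stage 35 was the higher for both, as for 19 of 21 members, and each tadpole pool lay above both tailbud pools. Gata1, the red cell factor, rose from 0.952 and 1.59 CPM to 18.2 and 30.4 CPM (log2 4.25 ± 0.42 SE, edgeR adjusted p = 2.94e-06), and the haem enzyme alas2 rose from 11.1 and 15.6 CPM to 90.1 and 129.8 CPM (log2 3.04 ± 0.43 SE, edgeR adjusted p = 4.86e-05). The stem cell factor gata2 fell from 119 and 138 CPM to 50.9 and 41.3 CPM (log2 -1.48 ± 0.24 SE, edgeR adjusted p = 0.00015). One globin, hbz, ran from 0.28 and 3.74 CPM to 2.37 and 131 CPM (log2 5.07 ± 1.61 SE, edgeR adjusted p = 0.0183), so that pool 1 of stage 35 lay below pool 2 of stage 25. Reads of similar globin genes may be shared among them.

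Of 19 endothelial genes 8 rose and 6 fell. The early regulator etv2 fell from 71.7 and 95.9 CPM to 16.5 and 14.3 CPM (log2 -2.45 ± 0.20 SE, edgeR adjusted p = 3.15e-07), and vwf, a product of mature endothelium, rose from 1.23 and 1.65 CPM to 14.2 and 11.4 CPM (log2 3.14 ± 0.33 SE, edgeR adjusted p = 3.67e-06). The sox17b copies in this list, which early endoderm expresses too, fell; sox17b.1 went from 12.1 and 5.02 CPM to 0 and 0.0811 CPM, a fall by a ratio of 221 with a 95% counting interval of 39.4 to 8775. The 8 rises became 4 without pool 1 of stage 25 and 5 without pool 2 of either stage. Of 15 immune cell genes 1 rose and 4 fell, and the 4 falls became 2 without either stage 25 pool or pool 1 of stage 35. With all pools the immune cell shares were 6.67% rising and 26.7% falling, against 25.7% and 22.0% of all genes tested. The phagocyte oxidase gene cybb fell from 34.1 and 35.5 CPM to 7.88 and 15.9 CPM (log2 -1.55 ± 0.37 SE, edgeR adjusted p = 0.003).

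Complement genes were high in the tailbud pools and fell. Of 18 members 12 fell (66.7%) and 4 rose, with a median of -1.29, and 11 or 12 falls were counted without any 1 pool. The pore-forming component c9 fell from 3181 and 2709 CPM to 184 and 352 CPM (log2 -3.46 ± 0.33 SE, edgeR adjusted p = 1.7e-06), and c8g fell from 553 and 744 CPM to 56.8 and 98.1 CPM (log2 -3.07 ± 0.29 SE, edgeR adjusted p = 1.31e-06). The central component c3 fell from 1447 and 1414 CPM to 352 and 843 CPM (log2 -1.26 ± 0.30 SE, edgeR adjusted p = 0.00326). The lower tadpole value of each lay in pool 1. Pool 2 of stage 35 was the higher for 16 of 18 members, as for most liver, lens and blood genes, and a link between these was not tested. The genes that rose were c4a, c2, masp2 and c1qc. The protease masp2 of the lectin pathway rose from 0.112 and 0.368 CPM to 5.89 and 11.4 CPM (log2 5.15 ± 0.73 SE, edgeR adjusted p = 6.73e-05).

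Liver genes rose. Of 26 members 20 rose (76.9%) and 1 fell, with a median of 3.62. Transthyretin, the thyroid hormone carrier (ttr), rose from 9.86 and 13.4 CPM to 637 and 1887 CPM (log2 6.76 ± 0.49 SE, edgeR adjusted p = 1.11e-07), and apolipoprotein B, apob, rose from 2.07 and 6.86 CPM to 261 and 782 CPM (log2 6.88 ± 0.74 SE, edgeR adjusted p = 4.36e-06). The fibrinogen chain fgg rose from 0.168 and 0.674 CPM to 78.8 and 174 CPM (log2 8.24 ± 0.62 SE, edgeR adjusted p = 3e-07). In each of these, pool 2 of stage 35 held over 2 times pool 1, and both lay above the tailbud pools. Pool 2 was the higher for 23 of 26 members. The tyrosine breakdown enzyme hpd, in contrast, had 10.3 and 7.14 CPM at stage 35 and no count at stage 25, at least 100-fold higher. The liver bud factor hhex was not called. Counts of rises without 1 pool ran from 17 to 20.

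Of 22 gut and pancreas genes, 6 rose (27.3%) and 8 fell (36.4%), against 25.7% and 22.0% of all genes tested. The brush border gene vil1 rose from 2.13 and 2.63 CPM to 18.5 and 42.7 CPM (log2 3.68 ± 0.38 SE, edgeR adjusted p = 3.27e-06), and the exocrine pancreas factor ptf1a rose from 1.34 and 3.49 CPM to 16.7 and 19.6 CPM (log2 2.91 ± 0.39 SE, edgeR adjusted p = 3.45e-05). The endoderm factor sox17a fell from 79.1 and 77.1 CPM to 9.72 and 11 CPM (log2 -2.91 ± 0.19 SE, edgeR adjusted p = 6.37e-08), and the posterior factor cdx2 fell from 78.5 and 78.1 CPM to 5.36 and 17.4 CPM (log2 -2.78 ± 0.40 SE, edgeR adjusted p = 6.11e-05). Of 29 kidney genes, 9 rose and 13 fell. The early pronephric factor pax8 fell from 40.8 and 42.6 CPM to 8.42 and 7.87 CPM (log2 -2.35 ± 0.26 SE, edgeR adjusted p = 5.24e-06). The salt carrier slc12a3 rose from 0.112 and 0.245 CPM to 13.4 and 14.4 CPM (log2 6.24 ± 0.55 SE, edgeR adjusted p = 6.95e-07).

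Epidermal genes fell. The tailbud skin carries keratins, mucus cells, ionocytes and beating multiciliated cells. Of 36 epidermis and ionocyte genes 21 fell (58.3%) and 4 rose, with a median of -0.93. The simple epithelial keratins krt8.1 and krt18.1 fell from 2292 and 2078 CPM to 323 and 254 CPM (log2 -2.92 ± 0.24 SE, edgeR adjusted p = 3.75e-07) and from 1564 and 1497 CPM to 198 and 232 CPM (log2 -2.83 ± 0.19 SE, edgeR adjusted p = 6.61e-08). The copy krt12.2 rose from 13.7 and 9.74 CPM to 54.9 and 49.9 CPM (log2 2.16 ± 0.48 SE, edgeR adjusted p = 0.00185). The mucus lectin itln1 was not called at 653 and 603 CPM at stage 25 and 251 and 412 CPM at stage 35. Of 29 multiciliated cell genes, 20 fell (69.0%) and 1 rose, with a median of -1.05. The cilium genes tekt2 and dnah9 fell from 83.4 and 72.3 CPM to 19.7 and 28.7 CPM (log2 -1.68 ± 0.22 SE, edgeR adjusted p = 2.46e-05) and from 62.1 and 76 CPM to 19.7 and 27.7 CPM (log2 -1.54 ± 0.24 SE, edgeR adjusted p = 0.000117). The regulator mcidas was the gene that rose, from 0.728 and 0.735 CPM to 4.82 and 4.3 CPM (log2 2.63 ± 0.48 SE, edgeR adjusted p = 0.000438), after 74.1 and 79.9 CPM at stage 15. The 20 falls became 12 without pool 1 of stage 35 and 14 without pool 1 of stage 25. The cement gland marker agr2 fell from 345 and 278 CPM to 32.1 and 41.3 CPM (log2 -3.09 ± 0.35 SE, edgeR adjusted p = 6.82e-06); of 8 cement and hatching gland genes tested, 4 fell, and 1 fell without pool 1 of stage 25.

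Genes of the cell cycle and of splicing fell while those of the ribosome and respiration rose. Of 57 DNA replication and mitosis genes 46 fell (80.7%) and 1 rose, with a median of -0.95. Fewer of these falls were called with any 1 pool left out. Ribonucleotide reductase rrm2.2 fell from 1127 and 1087 CPM to 353 and 349.7 CPM (log2 -1.66 ± 0.16 SE, edgeR adjusted p = 1.29e-06), and the mitotic cyclin ccnb2 fell from 143 and 139 CPM to 32.5 and 46.1 CPM (log2 -1.84 ± 0.19 SE, edgeR adjusted p = 2.84e-06). The replication clamp gene pcna was not called at 423 and 363 CPM at stage 25 and 319 and 403 CPM at stage 35. Of 50 other spliceosome genes 34 fell (68.0%) and 1 rose, with a median of -0.59, the same value as for the SF3 complex. The helicase gene ddx23 fell from 41.3 and 33.6 CPM to 14.3 and 13.8 CPM (log2 -1.42 ± 0.30 SE, edgeR adjusted p = 0.00133). Refits without 1 pool counted 23 or 24 falls.

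Of 78 cytoplasmic ribosomal protein genes 74 rose (94.9%) and none fell, with a median of 0.97 and log2 changes from -0.85 to 1.49. The stalk protein gene rplp0 rose from 562 and 623 CPM to 1704 and 1629.5 CPM (log2 1.49 ± 0.16 SE, edgeR adjusted p = 4.44e-06). The members not called were rpl3, with 2143 and 2232 CPM at stage 25 and 2255 and 2559 CPM at stage 35, and rpl3l, rpl7l1 and rps27l, which are relatives of ribosomal protein genes. The summed level was 70475 and 81248 CPM at stage 25 and 134021 and 151366 CPM at stage 35. Of 78 oxidative phosphorylation genes 68 rose (87.2%) and 2 fell, with a median of 1.13. The ATP synthase subunit gene atp5mc1 rose from 41.9 and 50.3 CPM to 212 and 229 CPM (log2 2.26 ± 0.15 SE, edgeR adjusted p = 6.37e-08), and the inhibitor atp5if1 rose from 15.7 and 24.6 CPM to 143 and 235 CPM (log2 3.23 ± 0.28 SE, edgeR adjusted p = 6.92e-07). Pool 2 of stage 35 was the higher for 73 of the 78, and fewer rises were called without it. The summed level of the list was 8086 and 8523 CPM at stage 25 and 13617 and 19451 CPM at stage 35.

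Among 35 Hox genes, which set position along the body axis, 16 fell (45.7%) and 3 rose, with a median of -0.60. Among them hoxb1 fell from 23 and 23.7 CPM to 1.68 and 0.892 CPM (log2 -4.16 ± 0.34 SE, edgeR adjusted p = 4e-07) and hoxd1 fell from 32.1 and 30.8 CPM to 3.6 and 3.97 CPM (log2 -3.05 ± 0.27 SE, edgeR adjusted p = 7.27e-07). A posterior gene, hoxb9, fell from 79.6 and 80.9 CPM to 15 and 11.5 CPM (log2 -2.6 ± 0.25 SE, edgeR adjusted p = 1.49e-06), and hoxa4 rose from 15.5 and 19 CPM to 54.1 and 43.2 CPM (log2 1.5 ± 0.24 SE, edgeR adjusted p = 0.000151). Genes of the maternal and germ line list also declined. The list also holds ventx and pou5f3 copies and the endoderm factor sox17a, so its falls are not those of maternal or germ line transcripts alone. Of 34 tested, 22 fell (64.7%) and 2 rose, with a median of -2.32, or -2.07 with genes at 0 counts set to their bound. The pluripotency gene ventx1.2 was at 311 and 277 counts and then at 0, at least 146-fold lower. The regulator of developmental timing lin28a fell from 422 and 402 CPM to 90.2 and 75.1 CPM (log2 -2.32 ± 0.19 SE, edgeR adjusted p = 3.76e-07), and the germ cell helicase ddx4 fell from 53.3 and 45.4 CPM to 14 and 6.73 CPM (log2 -2.25 ± 0.29 SE, edgeR adjusted p = 1.95e-05).

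The wild type embryos give the reference. Their course from stage 25 to 35 shares no library with the heterozygous one and called 4374 genes higher (24.7%) and 3999 lower (22.5%). Both courses called 3803 genes higher, which is 83.3% of the heterozygous and 86.9% of the wild type calls. Both called 3248 lower, which is 83.3% and 81.2%. No gene was called in opposite directions. Across genes, which are not independent replicates, the log2 changes of the courses correlated with r = 0.899, and with r = 0.96 over 13651 genes with a mean log2 CPM of at least 1. Of genes called in the heterozygous course only, 747 of 760 higher and 637 of 652 lower had a wild type change of the same sign.

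**Figure D5:**
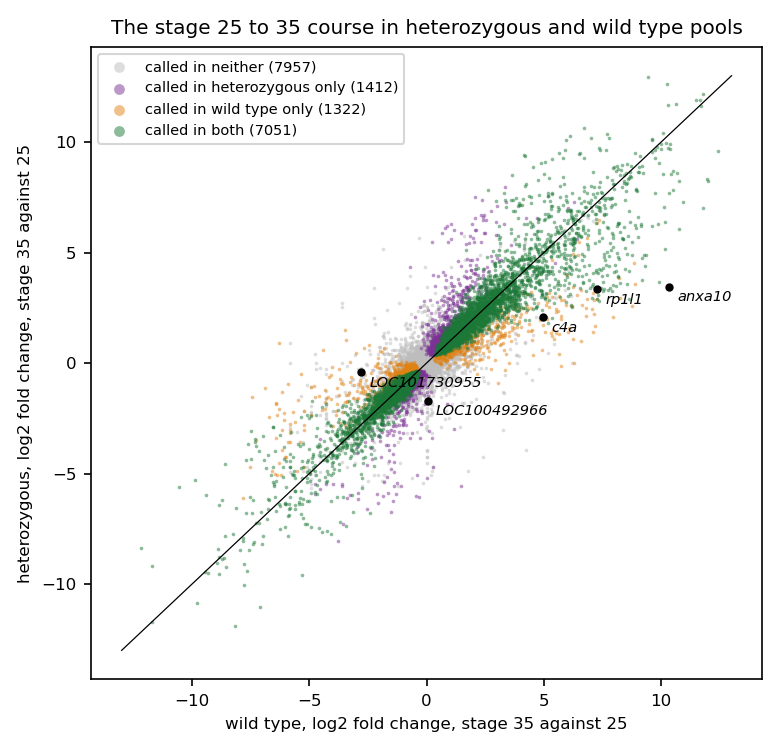
Log2 fold change of stage 35 against 25 in heterozygous embryos (y) against that in wild type embryos (x) for 17742 genes; colours mark calls in both courses (7051), 1 course (1412 and 1322) or neither (7957), and the line is equality. The 5 labelled genes have the smallest p in the test of the difference between the courses, and none of them was called.

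The difference between the courses was tested as a contrast of contrasts in the same edgeR fit, and 0 genes were called. The 0 calls do not show that the courses are equal, since a difference as large as that of c4a below was not called. At an unadjusted p under 0.05 there were 309 genes, where 5% of the genes tested is 887. DESeq2 called 1 gene, c4a, and edgeR without a filter on low counts called 2, c4a and LOC100492966. The complement gene c4a, a component of the classical pathway, rose from 4.98 and 4.35 CPM to 16.4 and 22.8 CPM in heterozygous pools, and was at 0.76 and 1.04 CPM and then 29.9 and 27.4 CPM in wild type pools. Its courses differed by -2.91 ± 0.46 SE (edgeR adjusted p = 0.203), and its heterozygous tailbud values lay above the wild type ones. The gene rp1l1, a relative of the photoreceptor gene rp1, had from 0.728 and 1.53 CPM to 12.9 and 10.1 CPM and 0.0584 and 0.0614 CPM and then 10.2 and 10.8 CPM in wild type (edgeR adjusted p of the difference = 1). For anxa10, an annexin, the values ran from 0.56 and 0.735 CPM to 7.42 and 6.81 CPM, and 0 and 0 CPM and then 11.4 and 9.62 CPM in wild type (edgeR adjusted p of the difference = 1). LOC100492966 went from 202 and 235 CPM to 78.9 and 55.6 CPM, with 178 and 139 CPM and then 201 and 127 CPM in wild type (difference -1.75 ± 0.39 SE, edgeR adjusted p = 1). LOC101730955 went from 8.96 and 6.56 CPM to 6.28 and 5.35 CPM, with 5.73 and 4.73 CPM and then 0.606 and 0.909 CPM in wild type (difference 2.37 ± 0.53 SE, edgeR adjusted p = 1).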

How the data were processed

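For each library the authors deposited raw counts by gene, per the file headers; the values are whole numbers with unequal totals. The submitters' processing notes name bcl2fastq 2.20 and STAR; the counting program, the genome build and the use of strand are not given in the sources used here, so genes with near-identical copies or overlapping neighbours are uncertain and no coordinates are printed. Each table lists 26531 genes.

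Genes were kept with filterByExpr (minimum count 10, minimum total 15), which left 17742 genes. TMM factors came from all 17 libraries. The quasi-likelihood test of edgeR 4.0.16 (R 4.3.3) was fitted to 16 libraries of 8 groups of 2 pools, with 8 residual degrees of freedom and a biological coefficient of variation of 20.7%; the single stage 15 null library entered only the factors. Tests were two-sided with Benjamini-Hochberg adjustment over all genes, and calls were made at 0.05. CPM use TMM library sizes. A gene with 0 counts over both pools of a stage was given a bound at 3 counts over the group, and 1 to 3 counts a ratio with an exact 95% counting interval; both cover counting error only. Pools of a stage differed by more than sampling noise (chi-square per degree of freedom 12 and 21.9). The fit was tested on simulated data.

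The members and the 33 lists (909 genes tested; 24 entries not found, 22 matched as numbered copies) were chosen with earlier results of these data known. Genes named by rule were sf3b4, the 10 largest called rises and falls among genes with a symbol, stages that did not overlap and a mean log2 CPM from 1 upward, the 5 largest CPM gains and losses, in each list the 3 largest called rises and falls and the most abundant member, and the 5 smallest p for the difference of courses. Other genes were named after their values were seen, and some named by the rule are not reported here. Alternatives were DESeq2 1.42.0, other scalings and filters, a replicate block, and leaving out each pool.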

Additional observations from a re-analysis of the deposited data

How the results depend on the processing

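Over all alternatives the heterozygous course called 3189 to 5174 genes higher and 2825 to 4452 lower, and none of its calls took an opposite call. Without 1 heterozygous pool, 3189 to 3638 were higher and 2825 to 3016 lower, with the lone pool assumed to vary like the other groups; without 1 wild type pool, that course called 3404 to 3562 higher and 2800 to 3204 lower, and the difference of the courses stayed at 0 to 0 calls. The difference had 1 call with DESeq2 and 2 without a filter, and 0 in each other alternative, with 211 to 521 genes at an unadjusted p under 0.05. The fall of sf3b4 was -0.45 with library totals alone, not called, and -0.87 to -0.34 without 1 pool. Scaling by library totals raised the median of all genes by 0.125 on the log2 scale and the share of higher among called genes from 53.9% to 61.8%. The replicate number is shared between stages, but the labels tie it to no clutch, and deviations of same-numbered heterozygous pools correlated across genes with r = 0.0474. With the replicate block, the 16 libraries gave 4435 higher and 3845 lower, the 4 pools alone 5174 and 4452, sf3b4 fell by 0.58 and 0.60, and the difference had 0 calls. Over the other pairs of groups, r was -0.066 between the genotypes at stage 25, 0.207 between stage 25 heterozygous and stage 35 wild type, 0.18 between stage 35 heterozygous and stage 25 wild type, -0.426 between the genotypes at stage 35 and -0.221 between the wild type stages. With the wild type numbers crossed, an alternative chosen after seeing the data, that course called 4862 higher and 4546 lower and the difference 0. Small list counts moved too: under each other scaling the 2 melanophore falls became 1 and the 1 immune cell rise became 3, and with library totals or upper quartile factors the 4 cement and hatching gland falls became 2. With 2 pools a stage, small changes of low genes are not detectable at this depth. The difference of the courses also missed larger ones, so its lack of calls does not show that the courses are equal.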

Other observations

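Some genes went between no count and a measured level in the heterozygous pools. In 122 genes both stage 25 pools had 0 counts and each stage 35 pool had at least 10. Of these, 91 had also had 0 counts in both stage 15 pools, 103 reached at least 10 counts in each wild type pool of stage 35, and 70 had 0 counts in both wild type pools of stage 25. They included abcb11.2, a copy of the bile salt pump gene of liver cells, with 6.51 and 9.17 CPM at stage 35 (at least 88.8-fold higher). Uricase, uox, had 2.98 and 3.57 CPM (at least 37.2-fold higher), and the neuronal factor neurod2 had 4.97 and 2.92 CPM (at least 45.3-fold higher). The corneal proteoglycan gene kera had 2.76 and 2.27 CPM (at least 28.7-fold higher). In 37 genes the order was the reverse, with at least 10 counts in each stage 25 pool and 0 in both stage 35 pools. Of these, 32 had at least 10 counts in each stage 15 pool and 23 were also at 0 in both wild type pools of stage 35. The signal gene nodal1 went from 469 and 571 counts to 0 (at least 258-fold lower), and the keratin krt57 from 204 and 309 counts to 0 (at least 127-fold lower). The wild type pools of stage 25 held 244 and 1 counts of krt57, so its level can differ widely between pools of 1 stage. These genes were picked after their values were seen, and the bounds cover counting error only.

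Of 17 genes of the inner ear and hair cells 5 rose (29.4%) and 1 fell (5.88%), against 25.7% and 22.0% of all genes tested. The tip link gene pcdh15 rose from 0.448 and 0.674 CPM to 4.13 and 3.41 CPM (log2 2.74 ± 0.55 SE, edgeR adjusted p = 0.00108), and otogl, a protein of the ear's gel coats, rose from 0.392 and 0.674 CPM to 8.57 and 3.81 CPM (log2 3.53 ± 0.79 SE, edgeR adjusted p = 0.00221). The 5 rises became 3 without pool 1 of either stage.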
